A study of Mus musculus with 9 samples.

Results

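Cytosolic ribosomal proteins are the protein parts of the ribosomes that translate nuclear-encoded mRNAs. They were described here through all probe sets whose only gene symbol is Rpl or Rps with a number and at most 1 of the suffixes a, x or l, or Rplp0, Rplp1, Rplp2 or Rpsa, with Rps6k genes and pseudogenes left out. The rule found 46 genes with 100 probe sets, of 18193 genes that have a probe set with a single symbol. Of these genes 24 belong to the large subunit and 22 to the small subunit, and each was read through the probe set of highest mean signal. Another 110 probe sets carry a ribosomal protein symbol together with further symbols and were not used. Because of them, 28 genes, among them Rplp1, Rpl3, Rpl5 and Rpl10, are not analysed here, nor are Rpl10l and Rps27a, for which no probe set with that single symbol was read.

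Total RNA was measured on 9 Affymetrix mouse arrays, in mouse embryonic fibroblasts taken from E13.5 embryos and immortalised spontaneously. The Suv420h1 -/- line lacks a histone H4 methyltransferase (gene symbol Kmt5b) and was measured reconstituted with a Suv420h1-GFP fusion (1 array), and as the null line itself, untransduced and with GFP (2 arrays). The wild-type line was transduced with lentivirus to express PREX2, an exchange factor for the GTPase Rac, cut short at K278*, E824* or Q1430* (3 arrays), full-length PREX2 (1 array), or a control vector with GFP or LacZ (2 arrays). Genotype, embryo of origin, immortalisation and, in part, transduction differ together between the lines and cannot be told apart, and the promoter that drives each construct is not given in these sources. No construct was repeated and no label says that arrays came from separate cultures. Each p-value therefore reflects only the spread between arrays of a group. That spread includes differences between the constructs pooled in the group, and the rest may be technical. For a group of 1 array the spread of the other groups was assumed.

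A ribosome holds a single copy of nearly every ribosomal protein, and the genes are among the most highly transcribed in a dividing cell. Their mRNAs usually begin with a run of pyrimidines, the TOP motif, through which the kinase mTOR and the protein LARP1 set how much of them is translated. Besides building the ribosome, several of these proteins are tied to human anaemias or to p53: free RPL11 and RPL5 bind the ubiquitin ligase MDM2, and loss-of-function mutations of RPS19 cause Diamond-Blackfan anaemia in humans.

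The promoters of 5 genes on which the results turn are printed because they show how unlike the start regions of genes in the same complex can be. Each sequence runs 5′ to 3′ on the gene's strand from 80 bases before to 20 bases after the start annotated by RefSeq (GRCm38.p6). Capitals mark CTTTC on the gene's strand, wherever it stands, and CGGAAG or its reverse complement CTTCCG, letters bound by ETS-family factors. CTTTC can be part of a TOP motif only where the transcript begins. Rps6 lies at chr4:86857348-86857447 on the minus strand, Rpl37 at chr15:5116533-5116632 on the plus strand, Rpl11 at chr4:136053374-136053473 on the minus strand, Rplp2 at chr7:141447571-141447670 on the plus strand and Rps3 at chr7:99483690-99483789 on the minus strand.
Rps6: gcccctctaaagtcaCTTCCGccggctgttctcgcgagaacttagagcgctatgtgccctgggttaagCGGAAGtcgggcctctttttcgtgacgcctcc
Rpl37: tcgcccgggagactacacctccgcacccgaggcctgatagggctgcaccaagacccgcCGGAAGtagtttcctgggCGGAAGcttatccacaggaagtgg
Rpl11: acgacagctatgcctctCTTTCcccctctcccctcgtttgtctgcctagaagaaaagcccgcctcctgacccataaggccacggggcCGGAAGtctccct
Rplp2: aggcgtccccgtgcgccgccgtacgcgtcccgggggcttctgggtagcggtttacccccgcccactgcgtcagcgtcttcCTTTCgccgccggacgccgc
Rps3: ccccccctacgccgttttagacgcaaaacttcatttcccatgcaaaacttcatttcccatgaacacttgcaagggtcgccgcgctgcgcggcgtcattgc

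Of the 46 genes, 40 had a promoter in the RefSeq table, with 48 windows of 300 bases (250 before the start and 50 after). CTTTC within 15 bases of the annotated start on the gene's strand stood in 22.9% of the ribosomal protein windows and in 4.05% of all 32851 windows. CGGAAG on either strand, searched over the whole window, stood in 62.5% of them and in 16.9% of all windows. TATAAA on the gene's strand was as frequent in them (8.33%) as in all windows (8.32%). A cytosine at the annotated start followed by 4 pyrimidines occurred in 16.7% of them and in 2.51% of all windows. Among the printed promoters, CTTTC stands at the annotated start of Rplp2, while that of Rpl11 lies before its start, outside the transcript. Rps6 and Rpl37 carry the ETS letters at 2 places each, and Rps3 carries neither of the marked motifs in this stretch. These matches are descriptions of letters.

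Most of the genes were read at the top of the arrays' range. Testing required a mean signal of at least 100 over the 9 arrays, on a scale on which the deposited arrays have a trimmed mean of 500, and 42 of the 46 genes passed (22 of the large and 20 of the small subunit). Of these, 34 had a mean signal of 10000 or more, and the other 8 (Rpl12, Rpl14, Rpl27a, Rpl37, Rpl39, Rps25, Rps27 and Rps6) were dimmer. The 4 untested genes were Rpl39l, a copy of Rpl39 used in the testis (mean signal 20.3), Rpl3l, the striated muscle form of Rpl3 (mean 10.1), Rps16, a common small-subunit protein whose only probe set of a single symbol was dim (mean 6.94), and Rps4l (mean 3.21). On no array did the signal of any of these 4 exceed 51.3, the value of Rpl3l with GFP in the wild-type line. Signals depend on the probes, so levels of different genes are not set against each other.

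The fibroblast label was checked by 14 marker genes, all of which were tested. Their summed signal was 162170 to 175480 in the null line, 174150 with K278* and 167600 with GFP in the wild-type line, and 222010 to 234800 on the 4 others of that line. 4 of the 14 were lower in the null line and 0 were higher, beside 21.3% and 22.1% of all probe sets. Thy1, a surface protein of many fibroblasts, had the log2 difference furthest from 0 (-6.11). Without the K278* and wild-type GFP arrays 11 of the 14 were lower and 0 higher, beside 27.7% and 28% of all probe sets. Those arrays had the lowest sums of these markers in the wild-type line. More lower calls follow from leaving them out, so nothing is read from the rise. Epithelial, endothelial, macrophage, muscle, neural and adipocyte lists had 2 or 3 tested genes each, and their part in the results below was not tested. Their sums cover all genes of a list with a single-symbol probe set, 5 to 7 per list, including those too dim to be tested. Neural markers summed to 245.8 to 449.9 in the null line and 1074 to 2225 in the wild-type line, and macrophage markers to 645.9 to 688.5 in the null line and 1091 to 1315 in the wild-type line. Muscle markers summed to 364.1 to 462.0 in the null line and 459.4 to 813.3 in the wild-type line, and epithelial markers to 552.6 to 634.7 in the null line and 624.0 to 740.2 in the wild-type line. Endothelial markers were higher in sum, 788.9 to 881.0 in the null line against 388.6 to 726.6 in the wild-type line, as were adipocyte markers for the most part, 10377 to 13592 in the null line against 2756 to 11135 in the wild-type line.

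The 4 tested probe sets of the targeted gene, Kmt5b, did not all move in the same direction. The one with a mean signal of 117.5 read 150.3 on the reconstituted array and 8.85 and 17.3 on the null arrays, against 117.9 to 182.4 in the wild-type line. Another of mean signal 116.2 read 66.2 on the reconstituted array and 101.5 and 79.4 on the null arrays, against 102.6 to 153.4 in the wild-type line, and was lower by log2 -0.56 (limma adjusted p = 0.0137). One more, of mean signal 364.8, was higher in the null line, where it read 462.1 to 553.7 against 221.4 to 338.1 in the wild-type line (log2 0.80, limma adjusted p = 0.00073). The brightest did not pass (log2 -0.05, limma adjusted p = 0.831). Which of them lie in the deleted part of the gene is not given in these sources, and the probe set of mean 117.5 was singled out after its values were seen. No 2 arrays held identical values.

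The lines were compared first: the 3 Suv420h1 -/- arrays, the reconstituted one included, against the 6 wild-type-line arrays. Ribosomal protein signals as deposited were mostly lower in the null line by a small amount, less so after quantile normalization: 18 of 42 genes (42.9%) were lower with a Benjamini-Hochberg adjusted p under 0.05 in limma, and 1, Rps6, was higher. Among all 19090 probe sets tested, 21.3% were called lower and 22.1% higher, 43.4% in all. The median log2 difference of the 42 genes was -0.18 (range -0.55 to 1.16, interquartile range -0.27 to -0.13), against 0.0042 for all probe sets, and 37 of 42 were below 0, against 49.6% of all probe sets. In bulk RNA, fewer cells of a type and less RNA per cell cannot be told apart.

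The size of this shift depended on how the arrays were brought to a common scale. After quantile normalization the median of the 42 genes was -0.045, against -0.033 for all probe sets, and 27 of the 42 were below 0. On that scale 2 genes were higher (Rps6 and Rps20) and 12 lower, beside 20.7% of all probe sets called higher and 23.8% lower. Centring each array on its own median of the 42 genes sets their median near 0 by construction (0.022) and adds 0.206 to every gene's line difference, so it shows only how genes stand relative to that median. On that scale the median of all probe sets was 0.21, and 3 genes were higher (Rps6, Rps20 and Rps27l) and 7 lower, beside 31.6% higher and 10.4% lower of all. The 7 genes lower under all 3 scalings were Rpl10a, Rpl11, Rpl22, Rpl37, Rplp2, Rps19 and Rps3, and Rps6 was higher under all 3.

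**Figure D1:**
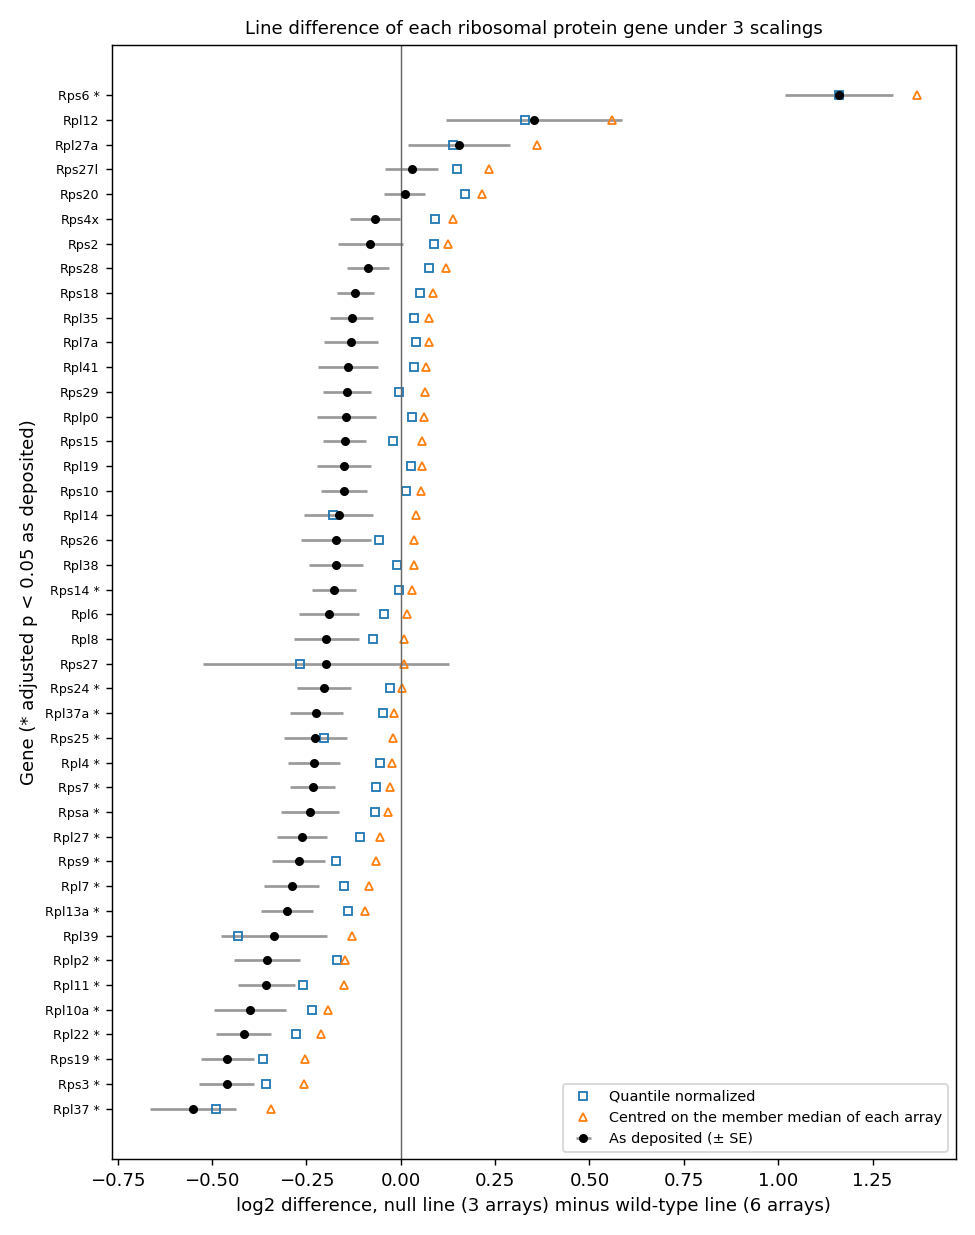
Log2 differences of the 42 tested genes, null line (3 arrays) minus wild-type line (6 arrays), as deposited with the standard error (black), after quantile normalization (squares) and centred on the genes' own median (triangles). As deposited 37 of the 42 lie below 0, and 27 do after quantile normalization, while centring moves all points by the same 0.206; Rps6 at 1.16 and the 7 genes named in the text keep their side.

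The signals of the arrays show where the shift lies. As deposited, the median deviation of the 42 genes from their own means was -0.14 on the untransduced null array, -0.13 with GFP and -0.098 with Suv420h1-GFP. In the wild-type line it was -0.12 with K278*, 0.14 with E824*, 0.044 with Q1430*, 0.14 with full-length PREX2, 0.12 with GFP and 0.07 with LacZ. The K278* array therefore sat with the null line, while the other 5 wild-type-line arrays were all above 0. After quantile normalization the same medians ran from -0.027 to 0.035 over the 9 arrays, with the null-line arrays and K278* again the lowest 4.

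The whole top of the signal range moved with the ribosomal protein genes. The 99th percentile of signal over all probe sets was 13738 to 14107 on the null-line arrays, 13928 with K278* and 14513 to 15077 on the remaining 5 arrays of the wild-type line. The 34 bright genes lie above that percentile on average, so both quantities share probe sets, and the part of the scaling in the shift was not tested. The 46 genes together held 2.57% to 2.66% of the summed signal in the null line, 2.61% with K278* and 2.90% to 3.02% on the remaining 5.

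**Figure D2:**
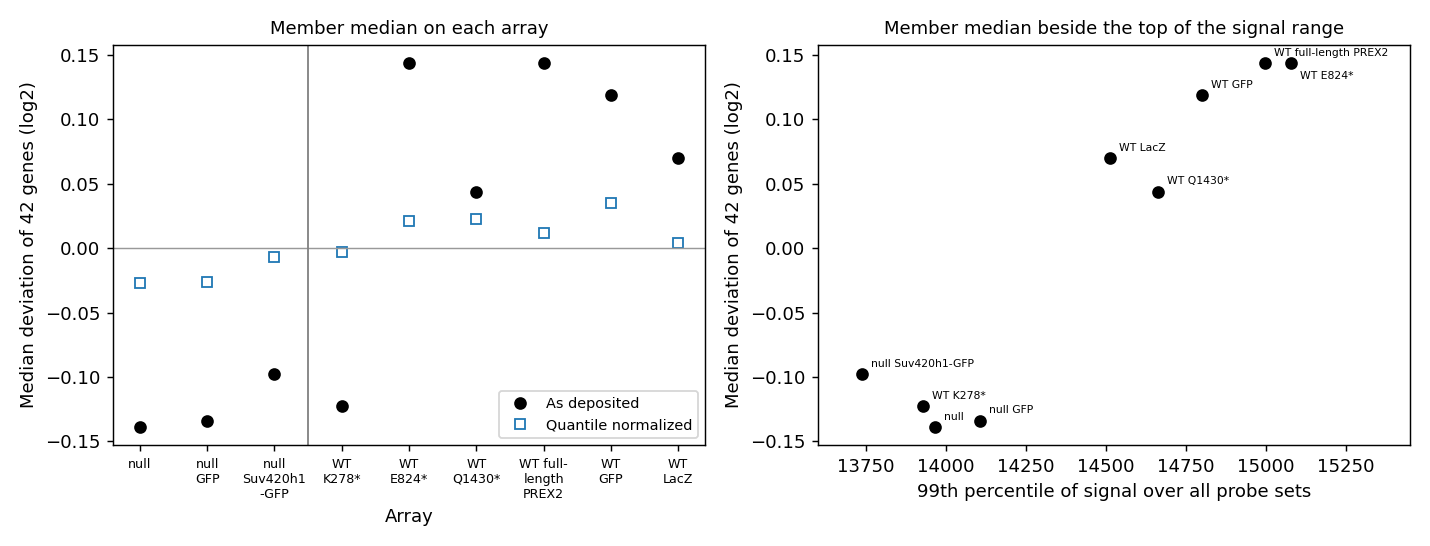
Left: median deviation (log2) of the 42 genes from their own means on each array, as deposited (filled) and after quantile normalization (open), with the 3 null-line arrays left of the vertical line. Right: the deposited medians beside the 99th percentile of signal; the null-line arrays and K278* lie between 13738 and 14107, the other 5 arrays at 14513 or above.

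Among large-subunit proteins, 0 were higher in the null line, 10 were lower and 12 did not pass, with a median log2 difference of -0.21. Rplp2 belongs to the stalk that recruits translation factors to the ribosome. It read 26453, 27883 and 29260 on the untransduced, GFP and Suv420h1-GFP arrays of the null line, against a lowest, median and highest value of 29266, 36285 and 39031 in the wild-type line. The highest null-line value fell just short of the lowest wild-type value, which was that of K278*. The log2 difference was -0.35 (SE 0.088, limma adjusted p = 0.00774). Rplp0, the protein that anchors the stalk, averaged 29330 ± 1040 in the null line and 32520 ± 2950 in the wild-type line (SD, n = 3 and 6) and did not pass (-0.14, limma adjusted p = 0.165), with a difference of 0.031 after quantile normalization.

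Rpl11, which with Rpl5 and the 5S rRNA forms the particle that binds MDM2, read 18490, 18563 and 21574 on the untransduced, GFP and Suv420h1-GFP null-line arrays, against 21787, 25443 and 26643 (lowest, median, highest) in the wild-type line. The Suv420h1-GFP array stood above the other null-line arrays and close below K278*, and the lines did not overlap. The log2 difference was -0.36 (SE 0.076, limma adjusted p = 0.00334). Rpl22, a protein that ribosomes can do without and whose loss in mice impairs T cell development, read 22306, 22376 and 24443 in the null line, in the same order, against 26630, 31159 and 33149 in the wild-type line. The lines were apart again, with K278* the lowest wild-type array. Its log2 difference was -0.42 (SE 0.072, limma adjusted p = 0.00091), and its other 2 tested probe sets gave -0.69 (adjusted p = 1.61e-05) and -0.73 (adjusted p = 0.0644).

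Rpl10a, a protein of the stalk on the opposite side of the subunit, read 24514, 26192 and 25910 on the untransduced, GFP and Suv420h1-GFP null-line arrays, against 27157, 34707 and 37676 in the wild-type line (log2 difference -0.40, SE 0.095, limma adjusted p = 0.00623). All null-line values were below those of the wild-type line, whose lowest was K278*. Rpl37 had the lowest log2 difference of the 42 genes, -0.55 (SE 0.115, limma adjusted p = 0.00284), with 6796, 5689 and 6820 in the null line against 8191, 9336 and 11654 in the wild-type line. E824* was its highest array and the null line with GFP its lowest. Rpl37 is read by a single probe set whose _x_at name marks probes that can also match other transcripts. This limit is not particular to Rpl37. Among the other genes called lower, the brightest probe sets of Rpl13a, Rpl37a, Rps7, Rps14 and Rps24 are also _x_at. Those of Rpl22 and Rps9 are _s_at.

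The remaining large-subunit genes that passed were Rpl13a (log2 -0.30, limma adjusted p = 0.00494), Rpl7 (-0.29, 0.00811), Rpl27 (-0.26, 0.00816), Rpl4 (-0.23, 0.019) and Rpl37a (-0.22, 0.0248). RPL13A is known in human monocytes as part of a complex that silences inflammatory mRNAs, and Rpl4 lines the tunnel through which the new protein leaves. All 4 probe sets of Rpl13a passed, at -0.30 to -0.63. Rpl38, mutated in the Tail-short mouse, averaged 34130 ± 1220 in the null line and 38530 ± 3010 in the wild-type line (log2 -0.17, limma adjusted p = 0.0713), and Rpl39, a small protein of the exit tunnel, averaged 214.2 ± 35.3 in the null line and 276.9 ± 38.3 in the wild-type line (-0.34, adjusted p = 0.0756). Neither passed as deposited; Rpl39 passed after quantile normalization (-0.43, limma adjusted p = 0.0285), and Rpl38 without K278* (-0.22). Rpl12 and Rpl27a were the only large-subunit genes above 0 (0.35 and 0.15) and did not pass either. The other 7 that did not pass, Rpl8 (-0.20), Rpl6 (-0.19), Rpl14 (-0.16), Rpl19 (-0.15), Rpl41 (-0.14), Rpl7a (-0.13) and Rpl35 (-0.13), were all below 0 as deposited and had limma adjusted p of 0.0744 to 0.176. After quantile normalization Rpl19, Rpl35, Rpl41 and Rpl7a were above 0.

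Among small-subunit proteins, 1 was higher in the null line, 8 were lower and 11 did not pass, with a median log2 difference of -0.16. Rps3 sits where the mRNA enters the ribosome and also has DNA repair activity. It read 16606, 17227 and 17805 on the untransduced, GFP and Suv420h1-GFP null-line arrays, against 20391, 24046 and 25617 in the wild-type line. The null-line values lay close together and below every wild-type-line array. The log2 difference was -0.46 (SE 0.072, limma adjusted p = 0.000471). A second, dimmer Rps3 probe set read 766.6, 856.6 and 902.7 in the null line against 1756 to 2602 in the wild-type line, a log2 difference of -1.38 (SE 0.136, limma adjusted p = 2.08e-05).

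Rps19, needed to mature the end of the 18S rRNA and the gene most often mutated in human Diamond-Blackfan anaemia, read 17621, 18112 and 18615 in the null line, in the same order of arrays, against 21655, 25302 and 26880 in the wild-type line. Its lines did not overlap and K278* was again the lowest wild-type array. The log2 difference was -0.46 (SE 0.069, limma adjusted p = 0.000377). Rpsa, the protein also known as the laminin receptor, averaged 31630 ± 1440 in the null line and 37460 ± 3230 in the wild-type line (-0.24, limma adjusted p = 0.0273). Its lines overlapped, since K278* read 31117.

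The other lower small-subunit genes were Rps9 by its brightest probe set (log2 -0.27, limma adjusted p = 0.0101), Rps7 (-0.23, 0.0086), Rps25 (-0.23, 0.0498), Rps24 (-0.20, 0.0402) and Rps14 (-0.18, 0.0283). RPS14 is the gene behind the anaemia of the human 5q- syndrome, and Rps25 is needed by several viral internal ribosome entry sites. Rps25 averaged 3196 ± 257 in the null line and 3742 ± 266 in the wild-type line, and Rps14 averaged 27950 ± 331 in the null line and 31640 ± 1830 in the wild-type line (SD, n = 3 and 6). After quantile normalization Rps14 stood at -0.004 and did not pass. Rps27 (log2 -0.20, adjusted p = 0.658) varied more between arrays than the bright genes: it read 741.5 with full-length PREX2 and 235.3 with GFP in the wild-type line. The other 7 that did not pass were Rps26 (-0.17), Rps10 (-0.15), Rps15 (-0.15), Rps29 (-0.14), Rps18 (-0.12), Rps28 (-0.09) and Rps2 (-0.08), with limma adjusted p of 0.0582 to 0.478. They too were all below 0 as deposited, and after quantile normalization Rps10, Rps18, Rps28 and Rps2 were above 0.

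Rps6 was the only ribosomal protein gene called higher in the null line from its brightest probe set. That probe set was dimmer than those of most of the genes (mean signal 1507), and the other one of Rps6 was too dim to be tested (mean 45.6). Of the 19 tested probe sets with a mean signal under 10000, 6 were called higher and 4 lower, beside 22.1% and 21.3% of all probe sets. Those of Rps9, Rps20 and Rpl41 called higher, described below, differed from the bright ones of the same genes. The protein is the best-known substrate of the S6 kinases and a marker of mTOR activity. Its signal was 2534, 2457 and 2182 on the untransduced, GFP and Suv420h1-GFP null-line arrays, against a lowest, median and highest value of 772.6, 1073 and 1314 in the wild-type line. Every null-line array was above every wild-type-line array, and the Suv420h1-GFP array was the lowest of the null line. The log2 difference was 1.16 (SE 0.143, limma adjusted p = 9.27e-05), and 1.16 to 1.37 under the 3 scalings.

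Genes close to 0 completed the small subunit's range at its upper end. Rps27l, a copy of Rps27 that p53 induces, averaged 22320 ± 734 in the null line and 21930 ± 1760 in the wild-type line (log2 0.03, limma adjusted p = 0.767), and its 3 probe sets differed by 0.01 to 0.03. Rps20 averaged 34490 ± 1910 in the null line and 34240 ± 1520 in the wild-type line (0.01, adjusted p = 0.892). Rps4x, encoded on the X chromosome, averaged 32390 ± 1780 in the null line and 33980 ± 2270 in the wild-type line (-0.07, adjusted p = 0.443), with a difference of 0.091 after quantile normalization.

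**Figure D3:**
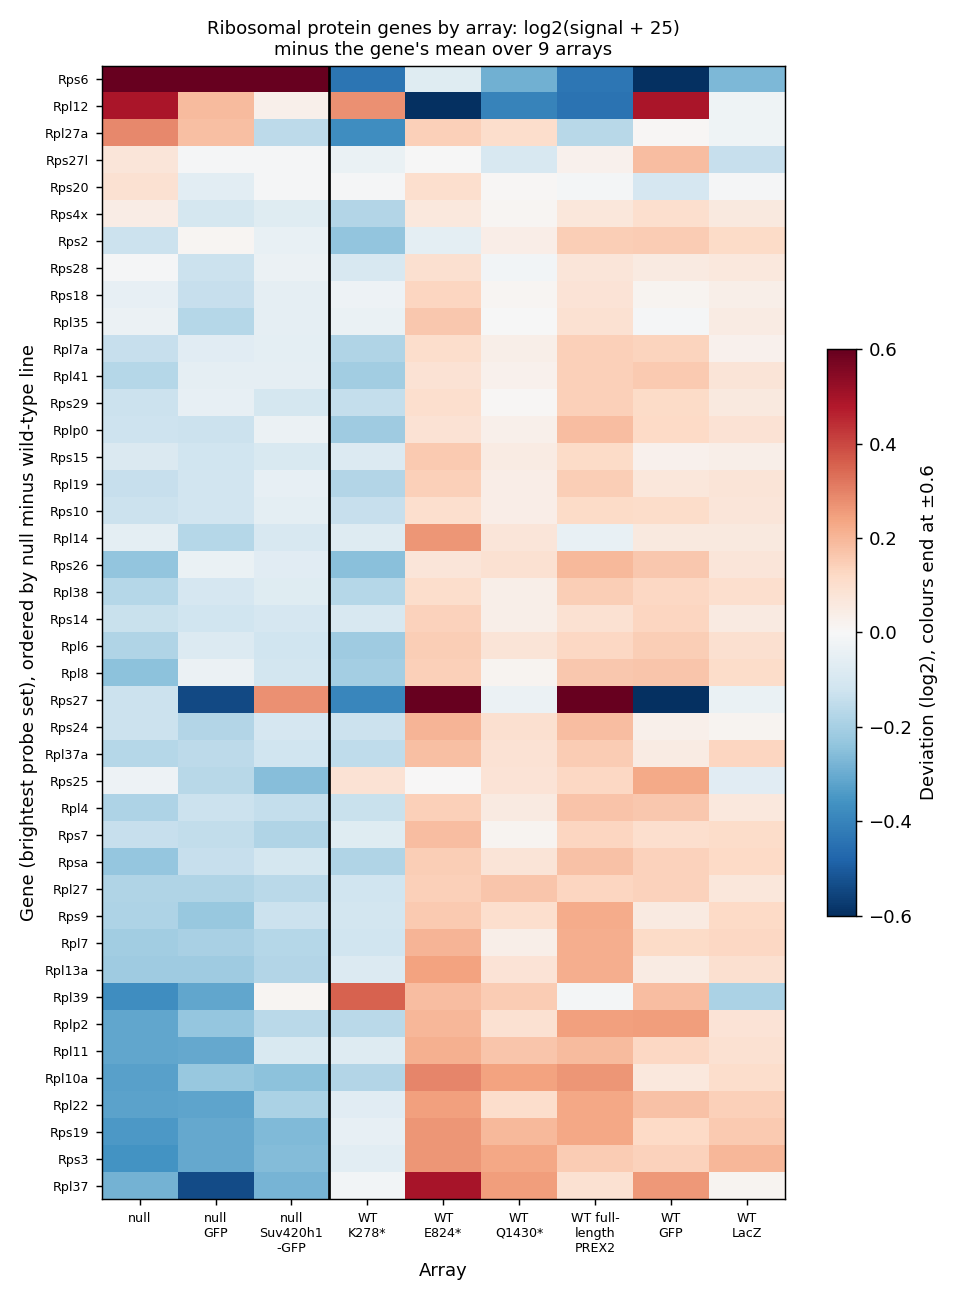
Deviation of log2(signal + 25) from each gene's own mean over the 9 arrays, for the 42 tested genes (brightest probe set) ordered by line difference, with colours ending at ±0.6 and the null-line arrays left of the black line. Rps6 is high on all 3 null-line arrays, and the K278* column has the colour of the null line at most bright genes.

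The lines did not overlap at 16 of the 42 genes, 15 of them lower in the null line and 1 higher, while 19.1% of all probe sets were non-overlapping and lower and 21.4% non-overlapping and higher. As deposited, the K278* array read below all 5 other wild-type-line arrays at 35 of the 42 genes (83.3%), against 13.6% of all probe sets. Its median log2 difference from them was -0.24 over the genes and 0.009 over all probe sets. After quantile normalization the median deviation of the 42 genes was -0.003 with K278* and 0.004 to 0.035 on the other 5. The genes at which K278* was lowest on that scale were not counted. At 25 genes the deposited K278* signal was within the null line's range or below it. The share of all probe sets so placed was not computed, so nothing is read from this count. Without K278* the line comparison called 31 of the 42 genes, 30 lower and 1 higher, while 21% of all probe sets were then called lower and 21.6% higher. Without K278* and the wild-type GFP array it called 32, of which 30 were lower and 2 higher, beside 27.7% and 28% of all probe sets. As deposited K278* was the lowest wild-type-line array at most of the genes, so more lower calls follow from leaving it out.

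Dimmer and brighter probe sets of the same genes were compared next. Of the 86 tested probe sets of all 42 genes, the 67 with a mean signal of 10000 or more had a median line difference of -0.18 (0 called higher, 31 lower), and the 19 dimmer ones a median of 0.059 (6 higher, 4 lower). Among all 19090 probe sets, bright and dim together, 22.1% were called higher and 21.3% lower. The genes whose probe sets disagreed most were Rps9, Rps3, Rps20, Rpl41 and Rps10. Rps9, which joins the small subunit early in its assembly, has a second probe set that read 20950, 17124 and 17876 on the untransduced, GFP and Suv420h1-GFP null-line arrays, against 731.4 to 1300 in the wild-type line. Every null-line value was far above the wild-type line, whose highest array was K278*.

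That Rps9 probe set had a log2 difference of 4.35 (SE 0.161, limma adjusted p = 1.73e-08), the rank 34 from the top among the 19090 probe sets. The brightest Rps9 probe set, 18820 to 20171 in the null line and 20409 to 25698 in the wild-type line, gave -0.27, and the third gave 0.06 (adjusted p = 0.776). The second is an _x_at probe set, and which transcript it read was not tested. For Rps20, 2 dim probe sets gave 0.82 and 0.84 (adjusted p = 0.00275 and 0.00306) beside 0.01 and -0.06 for the 2 bright ones. For Rpl41, the shortest ribosomal protein, 2 dim probe sets gave 0.63 each (adjusted p = 0.00631 and 0.0153) beside -0.14 and -0.16.

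**Figure D4:**
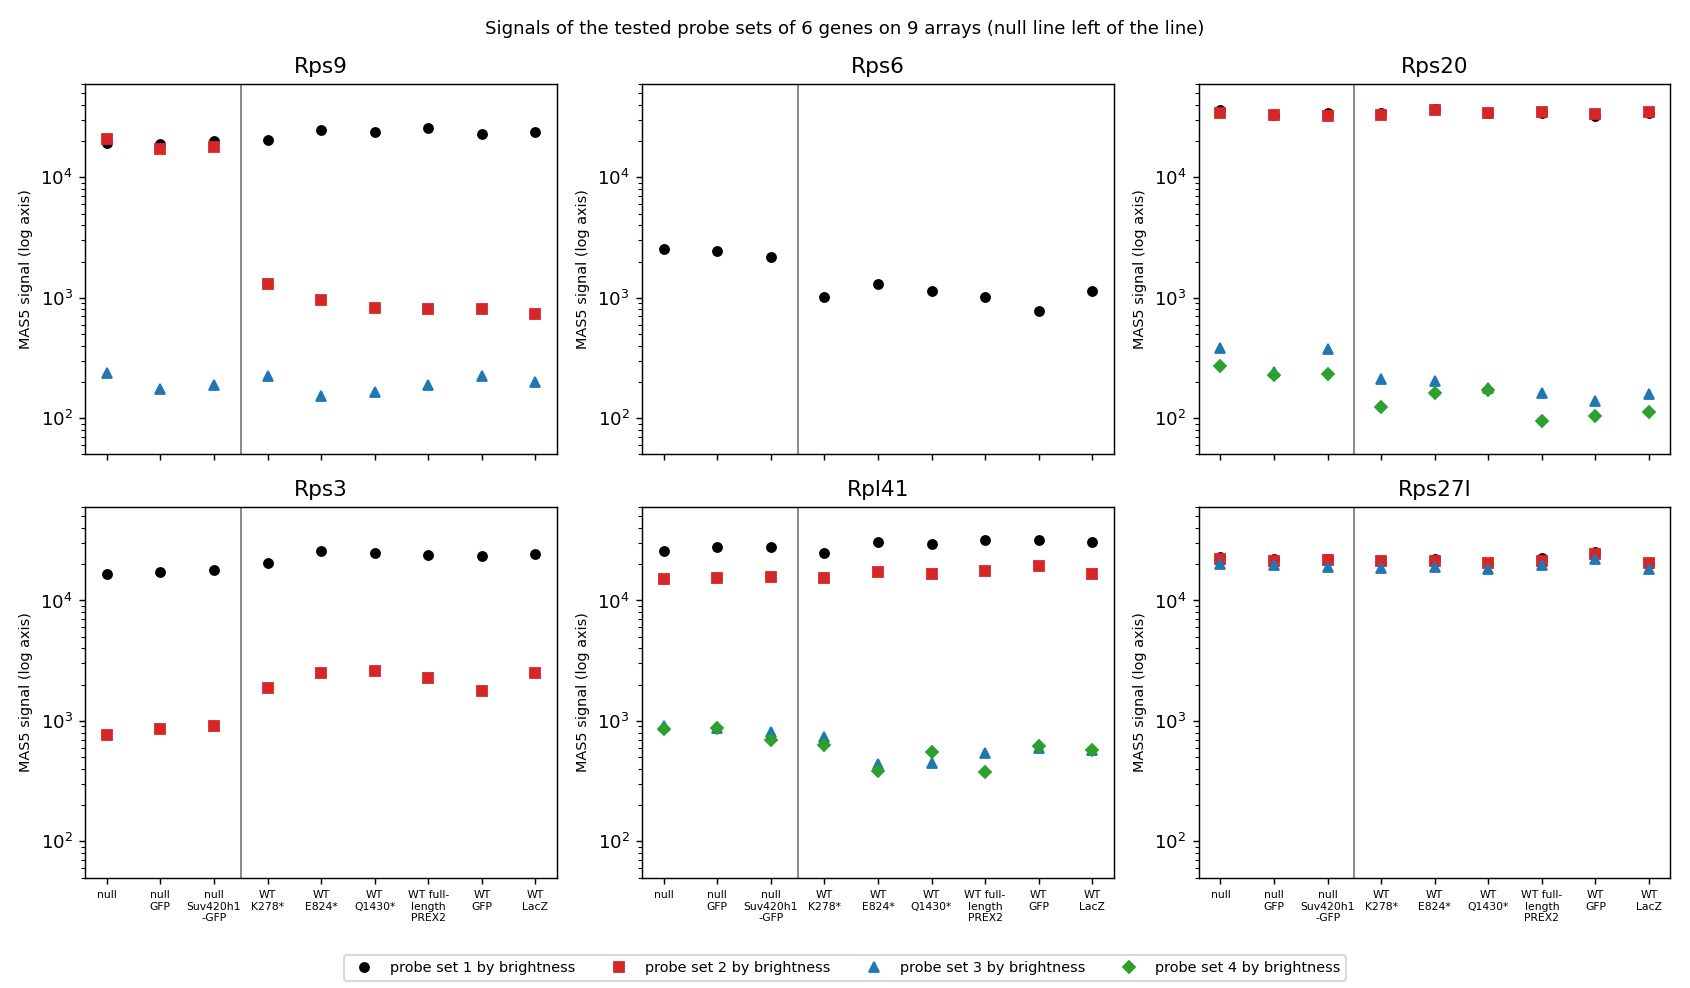
Signals (log axis) of every tested probe set of 6 genes on the 9 arrays, with the null line left of the vertical line and 1 symbol per probe set. The second Rps9 probe set lies between 17124 and 20950 in the null line and at 1300 or below in the wild-type line, Rps6 is higher in the null line, and the 3 Rps27l probe sets stay level.

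Leaving out the reconstituted and PREX2 arrays, the null line (2 arrays) was compared with the wild-type control vector (2 arrays), in a fit of all 5 groups. It called 5 of 42 genes (11.9%), beside 19.7% of all probe sets: Rps6 was higher, and Rps3, Rpl22, Rps19 and Rpl11 were lower (4 genes; 8.94% of all probe sets were called lower and 10.7% higher). The log2 differences were 1.38 for Rps6 (limma adjusted p = 0.00477), -0.50 for Rps3 (0.0284), -0.48 for Rpl22 (0.0228), -0.46 for Rps19 (0.0297) and -0.42 for Rpl11 (0.037). The null arrays were below both control arrays at 35 genes and above both at 2, while 29.9% and 30.7% of all probe sets were so placed. The median was -0.23 as deposited and -0.045 after quantile normalization. Without the untransduced null, null GFP or wild-type GFP array 1 gene was called, and without LacZ 2.

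Reconstitution with Suv420h1-GFP (1 array) was compared with the null line (2 arrays). No ribosomal protein gene passed: limma called 0 of 42, beside 0% of all probe sets, and 0 had an unadjusted p under 0.05, as had 621 of all probe sets. The median log2 difference was 0.04 (0.0168 over all probe sets), and the reconstituted array was above both null arrays at 22 genes and below both at 5, beside 38.9% and 33% of all probe sets. The smallest unadjusted p belonged to Rpl27a (-0.39), Rpl11 (0.22), Rpl39 (0.35), Rps27 (0.61) and Rpl22 (0.13), none of which passed (adjusted p = 1 for each). Rpl11, at 21574 with Suv420h1-GFP against 18490 and 18563 without, was thus the bright gene with the smallest p of this comparison. Both line comparisons and this one share the null arrays.

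The PREX2 comparisons were made within the wild-type line. Truncated PREX2 (3 arrays) against the control vector (2 arrays) called 0 of 42 genes, beside 0.00524% of all probe sets, and 0 genes had an unadjusted p under 0.05 (539 of all probe sets). The median log2 difference was -0.062, against 0.0054 over all probe sets. Rps2, a protein at the mRNA entry that is methylated by PRMT3, read 23688, 26800 and 28634 with K278*, E824* and Q1430*, against 30992 and 30252 with GFP and LacZ. All 3 truncations were below both controls, the only gene of the 42 so placed and with 0 above both, beside 6.49% and 7.32% of all probe sets, and the log2 difference was -0.22 (SE 0.099), which did not pass (limma adjusted p = 0.844). The next smallest p belonged to Rpl12 (-0.47), Rps6 (0.28), Rpl41 (-0.15) and Rpl39 (0.23), none of which passed.

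Full-length PREX2 (1 array) against the control vector called 0 of 42 genes, beside 0% of all probe sets. Rps27 alone had an unadjusted p under 0.05 (269 of all probe sets did): it read 741.5 with full-length PREX2, against 235.3 and 382.3 with GFP and LacZ, a log2 difference of 1.24 (SE 0.455, limma adjusted p = 1). E824* read 647.3 at the same probe set, so the full-length array was not far above every other. Rpl12 (-0.67), Rps24 (0.16), Rpl13a (0.15) and Rps9 (0.14) followed in order of p without passing. The median over the 42 genes was 0.051, against 0.0033 over all probe sets.

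Truncated against full-length PREX2 also called 0 of 42 genes, beside 0% of all probe sets, with 0 genes at an unadjusted p under 0.05 (241 of all probe sets). The 3 truncations were all below the full-length array at 19 genes and all above it at 2, beside 17% and 19.9% of all probe sets. The median log2 difference was -0.11 as deposited, against 0.0018 over all probe sets, and -0.004 after quantile normalization. Rps2 (-0.23), Rps27 (-0.79), Rplp0 (-0.22), Rpl7 (-0.18) and Rps26 (-0.22) had the smallest p, and none passed. Rplp0 read 26998, 33266 and 31985 with K278*, E824* and Q1430*, against 35607 with full-length PREX2. The K278* array was the lowest of the 3, as at most of the genes.

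Genes that act with the ribosomal proteins were read from further lists in the line comparison, which called 21.3% of all probe sets lower and 22.1% higher. Of 5 ribosomal proteins or their relatives under other names, Fau, whose product carries ribosomal protein eS30, was lower (log2 -0.37, limma adjusted p = 0.0034), while Rps3a1 (-0.14) and Rpl22l1, the paralog of Rpl22 (0.13), did not pass. Of 35 ribosome biogenesis genes 4 were lower and 0 higher, with a median of -0.072. They were Ebna1bp2 (log2 -1.18, limma adjusted p = 0.00037) and Pes1 (-0.43, 0.0464), which mature the large subunit, Nhp2 (-0.67, 0.0408), a protein of the H/ACA particles, and Eif6 (-0.50, 0.0185), which keeps the subunits from joining. Without the K278* and wild-type GFP arrays 9 of the 35 were higher and 4 lower, beside 28% and 27.7% of all probe sets. Those arrays had the highest summed signals of this list, so more higher calls follow from leaving them out. On the scale centred on the ribosomal protein median, 4 were higher and 1 lower, beside 31.6% and 10.4% of all probe sets.

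Of 28 translation factors 12 were lower and 3 higher, beside 21.3% and 22.1% of all probe sets. Their median was -0.17 as deposited and -0.11 after quantile normalization. Without the K278* and wild-type GFP arrays 17 were lower and 4 higher, beside 27.7% and 28% of all probe sets. The largest changes were those of the eIF3 subunits Eif3k (log2 -0.85), Eif3c (-0.73) and Eif3h (-0.67), part of the complex that brings the small subunit to the mRNA, and of the helicase gene Eif4a2 (0.73), all with limma adjusted p of 0.00023 or less. Of 13 genes that control ribosomal protein synthesis 2 were higher, Mycn (2.76, limma adjusted p = 0.0136) and Myc (0.91, 0.0125), both transcription factors that drive ribosome production. 2 were lower, Eef2k (-0.60, 0.00104), the kinase of elongation factor 2, and Eif4ebp1 (-0.24, 0.0387), an mTOR substrate. Without the K278* and wild-type GFP arrays 4 of the 13 were higher and 2 lower, beside 28% and 27.7% of all probe sets.

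The 5S particle and p53 list held 8 tested genes, of which 3 were higher and 3 lower, beside 22.1% and 21.3% of all probe sets. Mdm2, the ligase that RPL11 binds (1.25, limma adjusted p = 0.0014), Ccng1 (0.53, 0.00166) and Mdm4 (0.32, 0.0222) were higher, and the first of these and Ccng1 are p53 targets. Nop53, which helps to place the 5S particle (-0.75, 0.000215), Bbc3, a p53 target that promotes cell death (-0.50, 0.00805), and Rpl11 were lower. Cdkn1a, another p53 target, did not pass on all arrays (0.40, adjusted p = 0.134) and did without the K278* and wild-type GFP arrays (0.65, limma adjusted p = 2.33e-05). Without those arrays 5 of the 8 genes were higher and 3 lower, beside 28% and 27.7% of all probe sets. In the null line against the control vector these 5 lists had 0 and 1, 0 and 1, 2 and 7, 0 and 0, and 0 and 2 genes higher and lower in limma, in the order described. That comparison called 10.7% of all probe sets higher and 8.94% lower.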

How the data were processed

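The deposited values are array intensity values, made by the authors with MAS5 per the submitters' processing notes. No source used here gives the version of MAS5 or its target for scaling. Every deposited array had a mean of 500 after 2% was trimmed from each end, and medians of 56.3 to 68.7. Symbols came from the platform annotation, and all 46 genes matched RefSeq identifiers with 0 symbols changed. The 64 control probe sets were left out.

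Signals were transformed as log2(signal + 25), which understates differences of dim probe sets. Probe sets with a mean signal of at least 100 were fitted in limma 3.58.1 (R 4.3.3) with an intensity trend, and two-sided p-values were Benjamini-Hochberg adjusted over all 19090 of them, with a threshold of 0.05. The line comparison used 2 group means (7 residual degrees of freedom) and the others a fit of 5 group means (4 residual degrees of freedom). The number of arrays limits the precision. The procedure was run on simulated data with independent noise and with changes larger than most differences reported here. That run does not bear on calls of small differences or on shifts shared by the genes of an array.

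The members and lists were chosen with earlier results of these data known. Named were a set of well-studied genes whatever their values, passing genes with non-overlapping groups (up to 10 each way), the smallest p where under 5 passed, the 5 genes with most discordant probe sets, and up to 4 passing genes of each other list; further genes, and the Rps9, Rps20 and Rpl41 probe sets given singly, were named after their values were seen. Alternatives were offsets of 5 and 100, quantile normalization, a minimum of 200 or none, centring on the genes' median, no trend, omission of _x_at and _s_at probe sets, the mean of a gene's probe sets, equal weights of group means, the compared groups alone and each array left out. Added after the values were seen were leaving out the wild-type GFP and K278* arrays and using the second-brightest probe set. Counts without those arrays are therefore not independent of the values and are given as descriptions.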

Additional observations from a re-analysis of the deposited data

Results flagged for a closer look

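An array was singled out where its distance from the nearest other array, over the whole range of the 6 wild-type-line arrays, exceeded 0.625, and chance does so in about 5% of groups. The 27 groups tested were the genes followed through the alternative settings and the median of the 42 genes. Some of these genes, Rpl41 and Rps26 among them, were picked for small p in comparisons that include K278*. The 5% therefore does not hold for this choice of groups, and the count is not set against it. In all, 6 groups met the criterion, always through a low K278* array. The deposited log2 signal on that array was 14.93 for Rpsa, 15.00 for Rpl38, 14.85 for Rps4x, 14.60 for Rpl41 and 14.09 for Rps26. The median deviation of the 42 genes there was -0.12 as deposited (ratio 0.625) and -0.003 after quantile normalization. The search was not repeated on the quantile-normalized scale. The ratios of the 5 genes were 0.64 to 0.727. These genes share the array, so the 6 results are not independent.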

How the results depend on the processing

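Centring adds 0.206 to every line difference, so its sign changes are fixed by construction. In the line comparison the median member change was -0.045 after quantile normalization (-0.033 over all probe sets) and 0.022 when centred, and 10 genes were called when centred. Without K278* 31 were called (14 to 31 over single arrays left out), without GFP and K278* 32, and by the second-brightest probe set 9 of 19 genes. In the null line against the control vector the median was -0.045 after quantile normalization and 0.033 when centred; 1 gene was called with no filter, when centred or with no trend, 9 in the compared groups alone, and 1 to 2 with an array left out. The truncated PREX2 median was 0.036 against control when centred, and against full-length PREX2 -0.004 after quantile normalization and 0.035 when centred. The cause was not tested.

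Signs turned in the line comparison for Rplp0 (0.031 quantile, 0.062 centred), Rps4x (0.091, 0.139), and, centred, Rpl38 (0.035), Rps14 (0.029) and Rps27 (0.009, and -0.400 to 0.008 with an array left out). Rps9 was 0.059 without _x_at and _s_at probe sets, 1.379 as the mean of its probe sets and 4.35 by the second. Against the control vector the turned values were Rps4x 0.072 and Rps27 -0.066 by quantile, and Rps4x 0.148, Rplp0 0.034, Rpl38 0.014, Rps14 0.042 and Rps25 0.085 centred. Rps27l was -0.015 as the mean of probe sets and -0.153 to 0.169 with an array left out, and Rps27 -0.293 to 0.353. For full-length PREX2, Rps24 was -0.391 and Rps9 -0.148 without _x_at and _s_at probe sets, and Rps24 -0.007 as the mean. The line calls of Rpsa, Rps14 and Rps25 were lost with no filter or no trend at log2 differences of -0.24, -0.177 and -0.226, the same as before, and after quantile normalization at -0.069, -0.004 and -0.204. Calls were gained by Rpl39 after quantile normalization, and by Rplp0 (-0.197) and Rpl38 (-0.217) without K278*. No paired analysis was possible because the labels number no replicates.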

Other observations

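The eIF3 subunits were grouped after their values were seen. Of 11 tested, 8 were lower in the null line and 1, Eif3a, was higher (log2 0.41, limma adjusted p = 0.000496), beside 21.3% and 22.1% of all probe sets. The median line difference of the 11 was -0.39 as deposited, -0.30 after quantile normalization and -0.19 when centred on the ribosomal protein median. When centred 6 were lower and 1 higher, beside 10.4% and 31.6% of all probe sets. Eif3l (-0.66), Eif3f (-0.54), Eif3e (-0.39), Eif3d (-0.34) and Eif3m (-0.33) were lower beside the 3 subunits named above, all with limma adjusted p of 0.00708 or less. Eif3b (-0.05) and Eif3i (-0.15) did not pass.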
